A study of Homo sapiens with 3 samples.

Results

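The genes described here are cytosolic and mitochondrial chaperones, their co-chaperones and the transcription factors of the heat shock response, chosen by gene symbol from a list of 39. The table holds 12040 genes, and 37 of the 39 had a row in it. HSPA1A, a stress-inducible HSP70, and HSPA2, an HSP70 best known from testis, had none and are not analysed here. The study sequenced poly(A) RNA from HEK293, an established human embryonic kidney line, to ask what loss of DICER1, the nuclease that cuts miRNA precursors, does to transcript levels. DICER1 was knocked down in 1 library, DROSHA in another, and the last came from mock-transfected cells, so that each group has 1 library. The titles of all 3 samples carry the label 2.5d. All 3 used the same strain, labelled HEK293 T-Rex FLAG:DICER1 FLP-IN, so the mock cells also carry the FLAG:DICER1 insertion, and no source used here says whether it was induced. DROSHA acts one step before DICER1 in miRNA maturation.

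The table carries no column names. It gives 3 levels per gene, and its 2 fold changes divide 2 of these levels by the same denominator level. The libraries are therefore called the first numerator, the second numerator and the shared denominator library, and none is assigned to a knockdown or to mock. DICER1 had a level of 5.72 in the first numerator library and 24.0 in the second, against 15.7 in the shared denominator library. The levels of DROSHA were 21.4 in the first numerator library and 6.72 in the second, against 23.3 in the shared denominator library. DICER1 was thus lowest in the first numerator library and DROSHA in the second. Of the genes listed as typical of HEK293, LIN28B, IGF2BP1, IGF2BP3, NEFL and HOXA9 had a row, and PAX2 and NEFM had none. None of 12 markers of blood, liver, endothelial, fibroblast or monocyte cells had a row. The unit of the levels is not stated and the depth is unknown, so levels are compared between libraries, and across genes they serve only for a filter and for the weight of the 1 added to each level. Since no group was replicated, no value has a replicate error or a test, and every difference describes these libraries. In bulk RNA, fewer cells of a kind and less RNA per cell cannot be told apart.

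Chaperones bind unfolded proteins and help them fold, keep them soluble or pass them on for degradation. In the cytosol HSP70 works with J proteins, which deliver clients and stimulate its ATPase, and with nucleotide exchange factors such as HSPH1 and the BAG proteins. HSP90 takes over late folding steps of kinases and steroid receptors together with co-chaperones, and the ring-shaped chaperonin TRiC folds actin and tubulin. Mitochondria have their own set. Under proteotoxic stress HSF1 forms trimers that bind repeated GAA units, the heat shock element, and induces many of these genes.

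To show which members carry this element, promoter sequences were taken from RefSeq on GRCh38.p14, a later build than the hg19 named by the submitters, in windows running 250 bases upstream and 50 bases downstream of each annotated start. A 2-unit element was searched as GAANNTTC or TTCNNGAA, each of which reads the same on both strands. A 3-unit element was either of these followed by any 2 bases and 1 more unit, GAA or TTC, in alternating orientation, so each 3-unit match also holds 2-unit matches, and matches may overlap. Of the 39 listed members, 34 had a window and 5 (HSF1, HSPA14, STUB1, HSPB11 and CCT6A) had none. A 3-unit element was present for 7 of the 34 members, against 0.49% of all 35116 windows and 0.498% of the 8633 genes of the table that had a window. The 7 were HSPA8, HSP90AA1, HSP90AB1, CHORDC1, DNAJA1, DNAJB6 and HSPD1. A 2-unit element was present for 18 of the 34, against 13.5% of the genes of the table.

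Below are the stretches around the 3-unit elements of the 5 such members that also stand in a textbook list of heat-inducible genes, printed because they show the kind of sequence HSF1 binds, in genes whose levels are given next. Capitals mark 3-unit elements, and lower case the bases between them and up to 20 bases on either side, read 5′ to 3′ in the direction of the gene. HSPA8 lies at chr11:123062159-123062386, minus strand. HSPD1 lies at chr2:197500048-197500090, minus strand, from the second of its 2 annotated starts. HSP90AA1 lies at chr14:102087100-102087152, minus strand, DNAJA1 at chr9:33025256-33025308, plus strand, and CHORDC1 at chr11:90223067-90223129, minus strand. In CHORDC1, 3 overlapping matches form 1 run of alternating units, and in HSPD1 2 matches overlap. The DNAJA1 element lies after the annotated start, within the transcript, and the elements of the other printed genes lie before theirs.
HSPA8: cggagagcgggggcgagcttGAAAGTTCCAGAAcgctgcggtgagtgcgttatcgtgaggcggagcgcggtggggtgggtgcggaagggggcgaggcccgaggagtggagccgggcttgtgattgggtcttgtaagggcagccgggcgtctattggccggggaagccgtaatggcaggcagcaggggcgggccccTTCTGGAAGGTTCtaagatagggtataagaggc
HSPD1: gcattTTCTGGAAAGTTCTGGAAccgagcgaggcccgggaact
HSP90AA1: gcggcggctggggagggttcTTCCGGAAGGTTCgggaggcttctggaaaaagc
DNAJA1: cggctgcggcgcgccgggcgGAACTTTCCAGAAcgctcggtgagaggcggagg
CHORDC1: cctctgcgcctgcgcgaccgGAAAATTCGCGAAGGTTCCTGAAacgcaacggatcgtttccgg

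Across the 37 members, the levels of most differed little between the 3 libraries. No member reached 0.5 on the log2 scale, a 1.41-fold difference after adding 1 to each level, in either comparison. Of all genes, 3.5% reached this size in the first and 7.92% in the second comparison. At 0.3, a 1.23-fold difference, 1 member stood out in the first comparison, where 14.6% of all genes did, and 4 members in the second, where 25.2% did. None reached 1, a 2-fold difference, which 0.341% of all genes did in the first and 0.831% in the second comparison. The members' shares, 2.70% and 10.8% at 0.3, were below those of all genes.

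The median log2 fold change of the members was -0.02 in the first comparison, against 0.03 over all genes. Values above 0 were found for 17 of 37 members (45.9%) in that comparison and for 56.5% of all genes. In the second comparison the members' median was 0.12, against 0.01 over all genes, and 28 of 37 members (75.7%) were above 0, against 51.1% of all genes. The members were also closer together than genes at large, with an interquartile range of 0.154 against 0.25 in the first and 0.179 against 0.342 in the second comparison. A filter at a denominator level of 10 kept 36 of 37 members and 48.6% of all genes. Among the 5856 genes at or above that level the interquartile ranges were 0.232 and 0.309, still wider than those of the members. Many members lay far above that level, so the filter does not match them with genes of like level. Both comparisons share their denominator library, so a value that is off in it moves both fold changes of a gene in the same direction.

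**Figure D1:**
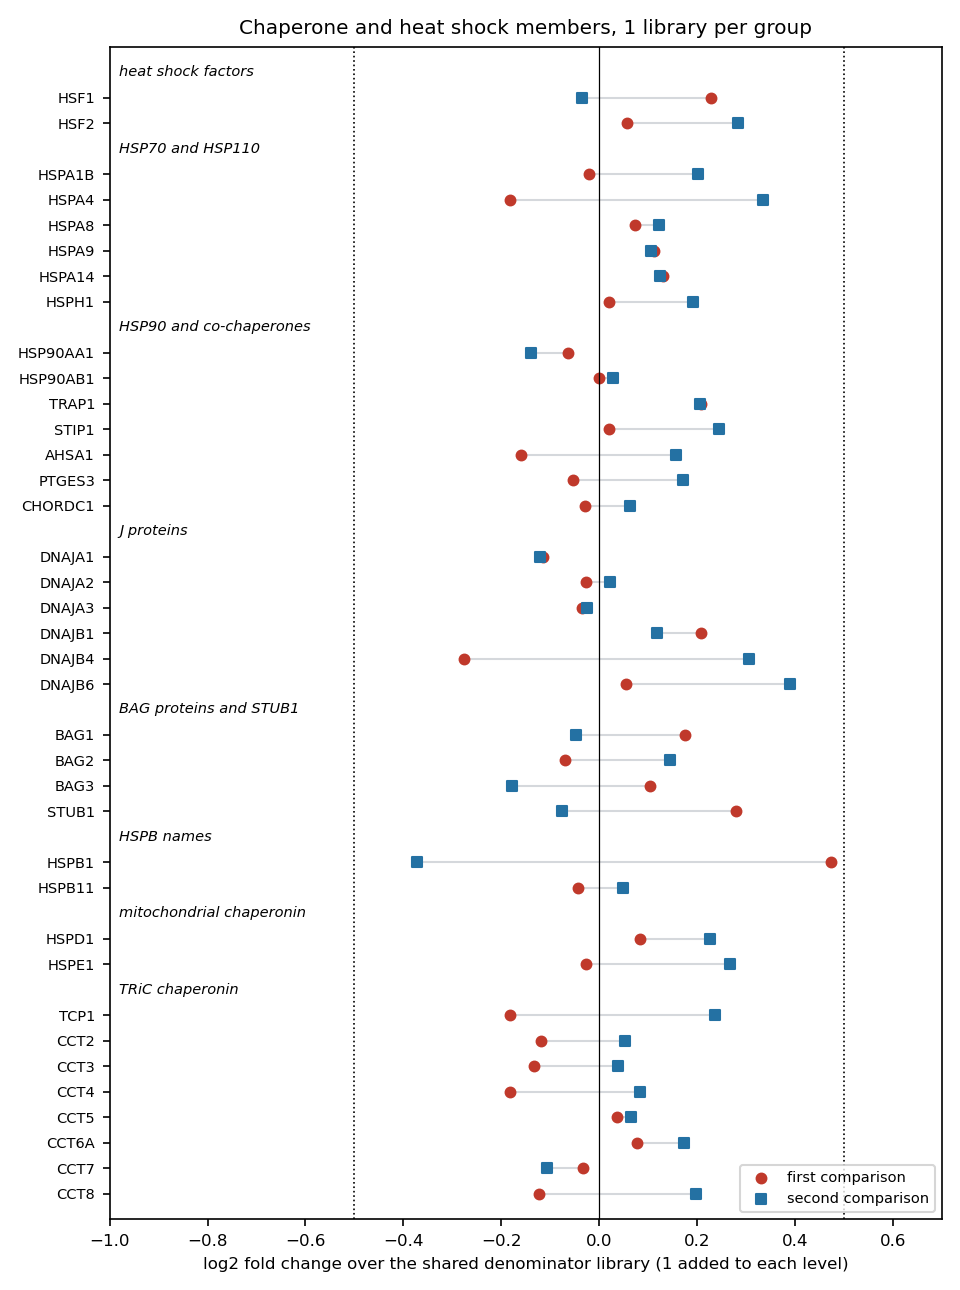
Log2 fold change (x axis, 1 added to each level) of each of the 37 members over the shared denominator library, by role, with red circles for the first comparison and blue squares for the second. Dotted lines mark -0.5 and 0.5, and every point lies between them, from -0.37 to 0.47.

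**Figure D2:**
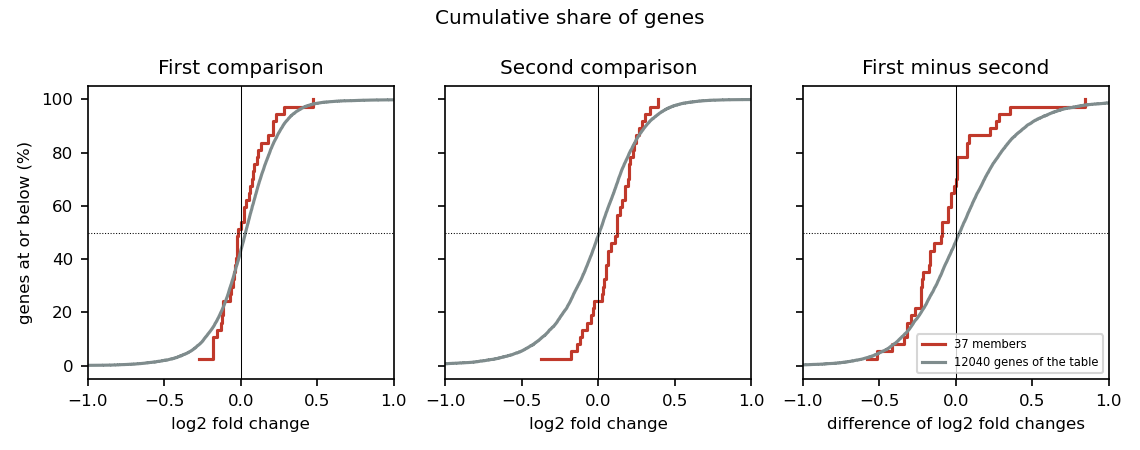
Cumulative percentage of genes (y axis) at or below each log2 value (x axis, drawn from -1 to 1) for the 37 members in red and the 12040 genes in grey. The members' curve is steeper in all 3 panels, is shifted to the right in the second comparison (median 0.12 against 0.01) and to the left in the first minus the second (median -0.09 against 0.02).

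Each member is described by its levels in the first numerator, the second numerator and the shared denominator library, and a pair of values after a gene such as "0.02 and 0.19" gives its log2 fold changes in the first and the second comparison. The heat shock factors showed small differences. HSF1, the main activator of the heat shock response, had a level of 21.1 in the first numerator library and 17.4 in the second, against 17.8 in the shared denominator library. Its log2 fold change was 0.23 in the first comparison, which 14.7% of all genes equalled or exceeded, and -0.03 in the second comparison. HSF2, a relative that binds the same element and can form mixed trimers with HSF1, was at 20.1 in the first numerator library and 23.7 in the second, against 19.3 in the shared denominator library. Its log2 fold changes were 0.06 and 0.28. HSF1 was thus highest in the first numerator library and HSF2 in the second.

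In the HSP70 family, mitochondrial HSPA9 included, and its HSP110 relatives, 6 members had a row, and all 6 were above 0 in the second comparison (median 0.16). HSPA4, an HSP110-type exchange factor also called APG-2, varied most. Its level was 70.3 in the first numerator library and 101.1 in the second, against 79.9 in the shared denominator library. That put it lowest in the first numerator library and highest in the second, at log2 fold changes of -0.18 and 0.33. HSPH1, the HSP110 that releases ADP from HSP70, stood at 41.0 and 46.3 in the numerator libraries, against 40.5 in the shared denominator library (0.02 and 0.19). HSPA8, the constitutive HSP70, had levels of 516 and 533, against 489.9, with log2 fold changes of 0.07 and 0.12. These are differences of at most 1.14-fold for HSPH1 and 1.09-fold for HSPA8 after adding 1. HSPA1B, the stress-inducible HSP70 and a common readout of HSF1 activity, had levels of 116 and 135, against 118 in the shared denominator library, at log2 fold changes of -0.02 and 0.20. HSPA14, a ribosome-associated HSP70, was at 0.13 and 0.12, so both numerator libraries were alike.

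HSPA1B could not be separated from its near-identical copy HSPA1A. In GENCODE release 29, 71.4% of the 50-base words of the longest HSPA1B transcript also occurred in HSPA1A, and no source used here says how the authors' counting divided such reads. The same count over all 37 measured members found no shared 50-base word in 16 and a median share of 1.5%. The share was at least 20% in 3 members, which were HSPA1B at 73.5%, HSPE1 at 27.2% and HSPD1 at 24.8%. Next below that limit came DNAJB6 at 19.1%, HSP90AB1 at 18.8%, HSP90AA1 at 17.5% and HSPA8 at 15.4%. The pseudogene HSPD1P1 shared most with HSPD1 (16.8%), and the readthrough gene HSPE1-MOB4 shared most with HSPE1 (16.0%).

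Among the HSP90 proteins and their co-chaperones, the second comparison was above 0 for 6 of 7 members and the first for 2 of 7. HSP90AA1, the inducible cytosolic HSP90, was the exception in the second, with levels of 951 and 903 in the numerator libraries, against 995 in the shared denominator library (log2 fold changes -0.06 and -0.14). HSP90AB1, the constitutive form, was nearly level at 662.0 and 676, against 662 (-0.0010 and 0.03). The cytosolic HSP90 genes therefore showed no common shift. AHSA1, which stimulates the HSP90 ATPase, had levels of 86.2 and 107.5, against 96.3 in the shared denominator library, at -0.16 and 0.16. STIP1, the adaptor that hands clients from HSP70 to HSP90, was at 0.02 and 0.25, with levels of 138 and 161, against 136. PTGES3, the p23 co-chaperone, was at -0.05 and 0.17, and CHORDC1, an HSP90-binding protein whose promoter holds 3 element matches, at -0.03 and 0.06. AHSA1, STIP1, PTGES3, CHORDC1 and HSP90AB1 were thus highest in the second numerator library.

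The J proteins spread more widely, and DNAJB4 and DNAJB6 were the highest of them in the second comparison. DNAJB4, a relative of the inducible DNAJB1, was at 3.06 in the first numerator library and 5.08 in the second, against 3.92 in the shared denominator library. Its log2 fold changes were -0.28, the lowest of all members in the first comparison, and 0.31. DNAJB4 was the 1 member with a denominator level under 10, so its fold changes depend most on the 1 added to each level. DNAJB6, a suppressor of polyglutamine aggregation, had levels of 65.6 and 83.1, against 63.2 in the shared denominator library. It was the highest member of all in the second comparison at 0.39, which 5.70% of all genes equalled or exceeded, and stood at 0.05 in the first. GENCODE transcripts of other genes held 19.1% of the 50-base words of DNAJB6. DNAJB1, a J protein strongly induced by heat, was at 0.21 and 0.12, with levels of 36.4 and 34.2, against 31.4. DNAJA1, another partner of cytosolic HSP70, was at -0.11 and -0.12, so both numerator libraries lay below the shared denominator library. DNAJA2 was at -0.03 and 0.02.

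BAG proteins bind the ATPase domain of HSP70, and STUB1, also called CHIP, is the ubiquitin ligase that marks its clients. Of these 4 genes, 3 were above 0 in the first comparison and 3 below 0 in the second. STUB1 had levels of 128.5 and 100.2 in the numerator libraries, against 105.7 in the shared denominator library. Its log2 fold change of 0.28 in the first comparison was equalled or exceeded by 9.45% of all genes, and it was -0.08 in the second. BAG3, an HSF1 target that routes clients to autophagy, was at 0.10 and -0.18, with levels of 14.4 and 11.7, against 13.3. BAG1 was at 0.17 and -0.05. BAG2, an inhibitor of STUB1, was the exception at -0.07 and 0.14.

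HSPB1, the small heat shock protein HSP27, which holds unfolded clients and is induced by HSF1, differed most of all members. Its level was 16.2 in the first numerator library and 8.56 in the second, against 11.4 in the shared denominator library. The numerator libraries thus stood on opposite sides of the denominator library. Its log2 fold changes were 0.47, equalled or exceeded by 1.76% of all genes, and -0.37, with 10.4% of all genes at or below it. HSPB1 was the highest member in the first comparison and the lowest in the second. The pseudogene HSPB1P1 holds 11.4% of its 50-base words. HSPB11 carries a heat shock name but works in intraflagellar transport, and was at -0.04 and 0.05.

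**Figure D3:**
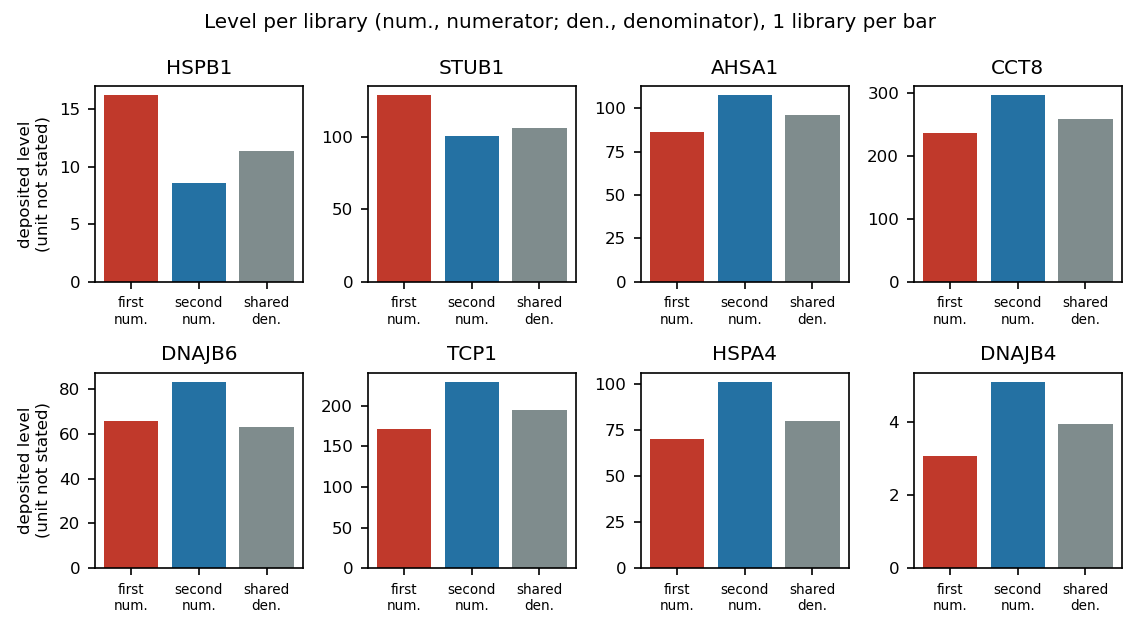
Deposited level (y axis, unit not stated, starting at 0) in the first numerator, the second numerator and the shared denominator library, for the 8 members whose fold changes differed by at least 0.3 between the comparisons, 1 library per bar. HSPB1 and STUB1 were highest in the first numerator library, and the other 6 in the second.

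Of the mitochondrial members, 4 of 5 were above 0 in the second comparison and 3 of 5 in the first. HSPD1 (HSP60) and HSPE1 (HSP10) form the folding chamber of the matrix. HSPD1 had levels of 449 and 496 in the numerator libraries, against 424 in the shared denominator library, at 0.08 and 0.23. For HSPE1 the levels were 199 and 244, against 203, at -0.03 and 0.27. Both were highest in the second numerator library. The genes lie head to head, and windows of the pair on opposite strands overlapped by 204 bases. The window of HSPE1 held neither a 3-unit nor a 2-unit element, so the bases it shares with HSPD1 do not hold the elements printed for HSPD1. TRAP1, the mitochondrial HSP90, was at 0.21 in both comparisons, with levels of 171.5 and 171.2, against 148. HSPA9, the mitochondrial HSP70, was at 0.11 in both, with 201 and 199.8, against 186. TRAP1 and HSPA9 therefore hardly differed between the numerator libraries. DNAJA3, the J protein partner of HSPA9, was nearly level at -0.04 and -0.03.

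The subunits of TRiC, which assemble in fixed positions of a double ring, were each within 0.24 of the shared denominator library. In the first comparison 6 of 8 were below 0, with a median of -0.12. In the second 7 of 8 were above 0, with a median of 0.07. TCP1 had levels of 171 and 229 in the numerator libraries, against 194 in the shared denominator library, at -0.18 and 0.24. CCT8 was at 237 and 297, against 258, which gave -0.12 and 0.20. For CCT4 the levels were 139.8 and 168, against 159, at -0.18 and 0.08. These 3 were lowest in the first numerator library and highest in the second, as were CCT2 (-0.12 and 0.05) and CCT3 (-0.13 and 0.04). CCT5 (0.04 and 0.06) and CCT6A (0.08 and 0.17) were slightly above 0 in both, and CCT7 (-0.03 and -0.11) below 0 in both.

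The first minus the second log2 fold change compares the numerator libraries with each other, and the shared denominator cancels. Of 37 members, 25 were below 0, so that the first numerator library was the lower. The share above 0 was 32.4% of the members, against 53.4% of all genes. The members' median was -0.09, against 0.02 over all genes. At 0.5 or more in size stood 3 members (8.11%), against 13.4% of all genes, and at 0.3 or more 8 members (21.6%), against 33.6%. None reached 1, which 1.66% of all genes did. HSPB1 stood at 0.85, with 2.17% of all genes at or above it. DNAJB4 stood at -0.58, with 3.01% of all genes at or below it, and HSPA4 at -0.52, with 4.31%. These 3 fell short of 0.5 when 10 in place of 1 was added to each level, with values of 0.497 for HSPB1, -0.21 for DNAJB4 and -0.47 for HSPA4. TCP1 at -0.42, DNAJB6 at -0.34, CCT8 at -0.32 and AHSA1 at -0.32 were lower in the first numerator library, and STUB1 at 0.36 was higher. By role, 7 of 8 TRiC subunits were below 0, and 3 of 4 genes of the BAG and STUB1 group were above 0.

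The textbook list of heat-inducible HSF1 targets was evenly split in the first comparison and lay mostly above 0 in the second. Its 14 measured members were HSPA1B, HSPA4, HSPA8, HSPH1, HSP90AA1, STIP1, AHSA1, CHORDC1, DNAJA1, DNAJB1, BAG3, HSPB1, HSPD1 and HSPE1. The list thus holds HSPA8, named above as the constitutive HSP70. Of the 14, 7 were above 0 in the first comparison, against 56.5% of all genes. In the second, 10 of the 14 (71.4%) were above 0, against 51.1% of all genes. The medians of the list were -0.0003 and 0.14, against 0.03 and 0.01 over all genes. The other 23 members had medians of -0.03 and 0.08, and 18 of them (78.3%) were above 0 in the second comparison. HSPB1 and HSPA4, both in the inducible list, were at opposite ends in each comparison. The 7 members with a 3-unit element had a median of -0.0010 in the first comparison, between -0.11 for DNAJA1 and 0.08 for HSPD1. In the second their median was 0.06, between -0.14 for HSP90AA1 and 0.39 for DNAJB6. The 10 measured members with a 2-unit element alone had medians of -0.05 and 0.13, and the 15 with neither had -0.03 and 0.16. The ranges of these classes overlapped. A match is a description of the letters and shows neither binding nor its absence.

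**Figure D4:**
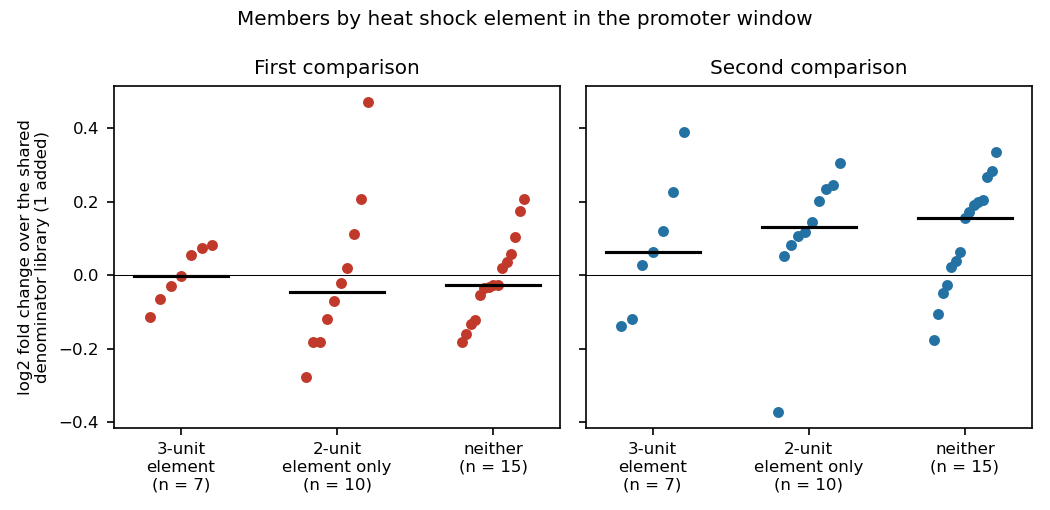
Log2 fold change (y axis, 1 added to each level) of the 32 measured members with a promoter window, split by the heat shock element found in it, in the first comparison (red) and the second (blue), with 1 point per member and a line at the median. The 3 classes overlap in both panels, and the medians of the class with a 3-unit element were -0.0010 and 0.06.

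Other genes of the pathway, from a list of 87 further chaperones, co-chaperones and mitochondrial proteases of which 74 had a row, had medians of 0.01 and 0.02. At 0.5 or more in size stood 1 of 74 in the first and 4 of 74 in the second comparison (1.35% and 5.41%, against 3.5% and 7.92% of all genes). HSF4, a heat shock factor known from the lens, was at 0.64 in the first comparison, from levels of 3.01 and 1.76 in the numerator libraries, against 1.57 in the shared denominator library. In the second comparison HSBP1, a small protein that binds HSF1 trimers and dampens them, was lowest at -0.71, with levels of 78.0 and 52.0, against 85.8. NUDC, an HSP90-associated chaperone of dynein regulators, was at -0.66, with levels of 156 and 96.5, against 153. CDC37L1, a relative of the kinase adaptor CDC37, was highest at 0.93, with levels of 6.34 and 11.0, against 5.29, and DNAJC16 followed at 0.59, with levels of 2.55 and 4.27, against 2.5. HSBP1, NUDC, CDC37L1 and DNAJC16 thus differed from the shared denominator library by more than any member did in the second comparison. In the first they stood at -0.14, 0.03, 0.22 and 0.02. HSF4, CDC37L1 and DNAJC16 had denominator levels under 10, so their fold changes depend more on the 1 added to each level.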

How the data were processed

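Poly(A) RNA of 3 HEK293 libraries was measured, 1 per group (DICER1 knockdown, DROSHA knockdown, mock transfection). Per the submitters' processing notes, the tools were Cuffdiff 2.1.1, Cufflinks, TopHat2 2.06, SAMtools and CASAVA 1.8.2, without roles, and the build was hg19. The authors deposited 1 table without a header, holding 3 levels per gene, whose unit is not stated, and 2 columns of log2 fold changes. Column names match no sample, so no column was assigned to one, and the comparisons of each knockdown with mock could not be named. Log2 fold changes were recomputed from the levels after adding 1, and equalled the deposited log2 values within 1e-11 in all 12040 genes. The table lists only genes with a denominator level above 1. It holds no counts: the 671 denominator levels below 1.5 took 665 distinct values, so no step of whole reads was visible, and depth is unknown. A gene counts as different at a log2 size of 0.5, with 0.3 and 1 as alternatives. No test was possible. The other alternatives added 0.1 or 10 to each level, re-centred on the median gene, left out HSPA1B and HSPB11, or kept denominator levels of at least 10.

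Members, lists and limits were chosen with earlier results of these data known. All measured members could be named, and other pathway genes only at or past 0.5. One HEK293 marker is not reported here. Promoters came from RefSeq (GRCh38.p14) by symbol, and 50-base words from GENCODE release 29. Python 3.11.15, numpy 2.4.6, pandas 2.3.3 and matplotlib 3.10.9 were used, and the fold changes and counts were tested on simulated data.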

Additional observations from a re-analysis of the deposited data

Results flagged for a closer look

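Members that lay on opposite sides of the shared denominator library in the 2 comparisons, with fold changes at least 0.5 apart, are listed here. These differences were not tested, because no group was replicated. HSPB1 differed by 0.846, DNAJB4 by -0.583 and HSPA4 by -0.518 (first minus second log2 fold change).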

How the results depend on the processing

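The medians of the members moved by at most 0.05 under each alternative tried. The count at or past 0.5 in the first comparison, 0, became 1 with a limit of 0.3 and 1 with 0.1 added to each level, where HSPB1 passed. In the second comparison it was 0, and 4 with a limit of 0.3. In the first minus the second it was 3, and became 8 with a limit of 0.3, 0 with a limit of 1 and 0 with 10 added. A denominator level of at least 10 left 2, since DNAJB4 is then left out. The alternatives for HSPB1, DNAJB4 and HSPA4 alone were chosen after their values were seen. No paired analysis was possible because each group has 1 library. Without replicates or depth, counting error is unknown, and low levels such as that of DNAJB4 are the least certain.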
